A study of Mus musculus with 12 samples.

Results

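The 10 genes described here, out of the 54532 genes counted in each library, were the constant region genes of the antibody heavy and light chains and the genes that build and carry secreted IgA. They were taken by symbol: Igha, Ighm, Ighg1, Ighg2b, Ighg2c, Ighg3, Igkc, Jchain, Pigr and Mzb1. The rule uses symbols and no measured value, although earlier results of these data were known when it was set. The libraries came from the colon of male C57BL/6 mice, 6 weeks old on arrival, and each of the 4 groups had 3 libraries, numbered 1 to 3 as in the sample labels. The Con group had no dextran sulfate sodium (DSS), a polymer that injures the colon epithelium, and the DSS group drank 3% DSS for 5 days. The UA+DSS group received ursolic acid (UA), a triterpenoid of plants, for 7 days from 1 day before DSS, in gavages of 200 mg/kg a day. The DSS+UA group received the same dose for 4 days, starting 3 days after DSS began. These lengths are those of the study's methods, and its discussion gives other lengths. Per the study's methods, Con and DSS mice were gavaged with vehicle, whereas the Con label reads untreated. The labels and methods do not name the segment of colon taken. A whole-tissue library holds epithelium, plasma cells, B cells and every other cell of the piece. In such libraries fewer cells of a type and less RNA per cell cannot be told apart.

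Most plasma cells of the colon make IgA. Their dimeric IgA is joined by the J chain (Jchain), taken up at the base of epithelial cells by the polymeric immunoglobulin receptor (Pigr), carried through the cell and released into the gut with part of the receptor attached. Ighm marks naive B cells as well as IgM plasma cells, and the IgG subclasses are the antibodies that bind Fc gamma receptors on macrophages and neutrophils. Igkc is the constant region of the kappa light chain, and Mzb1 is an endoplasmic reticulum chaperone of B and plasma cells.

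All coordinates are GRCm38. The heavy chain genes lie on the minus strand of chromosome 12 in the order in which class switching meets them: Ighm at chr12:113418558-113422730, Ighg3 at chr12:113356224-113361232, Ighg1 at chr12:113325240-113330523, Ighg2b at chr12:113302965-113307933, Ighg2c at chr12:113285325-113288932 and Igha at chr12:113254830-113260236. Igkc lies at chr6:70726435-70726966, Jchain at chr5:88519809-88527891 and Pigr at chr1:130826684-130852249. The 4 IgG genes are close relatives, with 86.3% identity between the aligned secreted coding bases of Ighg2b and Ighg2c and 76.1% to 78.5% between the other pairs, so their counts were checked for shared sequence. Of the 50-base stretches in the transcripts of each gene, 0.393% (Ighg1), 4.15% (Ighg2b), 5.49% (Ighg2c) and 1.58% (Ighg3) also occurred in a transcript of another gene, and none did for Igha, Ighm and Igkc. For Mzb1 53.5% did, all of them in transcripts of a single other annotated gene, which is not among the genes counted. Igkc overlaps the gene Gm30211. No source used here says how the authors' counting treated such reads, so the values of Mzb1 and Igkc are uncertain to that extent.

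The second exon of the secreted IgG forms encodes the hinge, the flexible link whose cysteines join both heavy chains. The hinge exons are shown because they differ in length among all 4 subclasses. Each is 1 exon on the minus strand, printed 5′ to 3′, with the in-frame cysteine codons in capitals.
Ighg3 (chr12:113360529-113360576, 48 bases): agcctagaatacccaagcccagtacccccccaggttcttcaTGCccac
Ighg1 (chr12:113329844-113329882, 39 bases): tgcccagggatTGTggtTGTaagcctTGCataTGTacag
Ighg2b (chr12:113307261-113307326, 66 bases): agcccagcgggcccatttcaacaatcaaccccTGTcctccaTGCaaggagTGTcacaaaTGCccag
Ighg2c (chr12:113288263-113288325, 63 bases): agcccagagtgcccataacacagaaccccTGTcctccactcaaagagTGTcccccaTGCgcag
The exons hold 1 cysteine codon in Ighg3, 4 in Ighg1, 4 in Ighg2b and 3 in Ighg2c.

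Total counts were 15566216 to 19498383 per library. The antibody genes, variable segments and Jchain included, took 0.523% to 3.08% of them. Each of the 10 epithelial, 14 plasma cell and 17 B cell markers examined had counts in every library, so the defining markers of these cells were present. DSS 3 stood apart by exocrine pancreas transcripts (sum of 8 markers 16140 CPM, the counts per 1000000 counts of a library, against 31.6 to 555 in the other libraries). A score of position along the colon (mean log2 CPM of 5 Hox genes expressed toward the rectum minus that of 6 expressed toward the caecum) also differed between groups. It was -5.70 to -4.16 in UA+DSS, 0.37 to 3.10 in DSS, 4.11 to 5.06 in DSS+UA, and -3.03, -1.83 and 5.53 in Con, where Con 1 was the library with the rectal value. UA+DSS, DSS and DSS+UA therefore did not overlap in this score, and the piece of colon and the treatment cannot be told apart in any comparison between these groups. UA+DSS also lay below every Con library in the score, so the same holds for UA+DSS against Con. DSS and DSS+UA met the range of Con only through Con 1.

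CPM below are scaled by TMM (trimmed mean of M values). Levels of different genes were compared only as CPM per kb of exon. The length took in all annotated exons, for Igha 2668 bases against 1100 in its secreted form, so the order of genes depends on that choice. In Con, the mean level per kb was highest for Igkc (4747), followed by Igha (1406), Pigr (1002), Jchain (615.8), Ighg2c (54.1), Mzb1 (18.7), Ighg2b (17.8), Ighm (14.9), Ighg1 (5.30) and Ighg3 (0.691). The libraries of Igha and Pigr overlapped, as did those of Mzb1 and Ighg2b, of Ighg2b and Ighm, and of Ighm and Ighg1, so these neighbours in the order were not separated by their spread. All 10 genes passed the filter on low counts, and 17658 genes were tested.

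Igha, the constant region of the IgA heavy chain, had 1905, 4146 and 5202 CPM in Con, 10500, 6497 and 7439 in DSS, 5715, 4589 and 3725 in UA+DSS, and 3567, 5267 and 2721 in DSS+UA. Every DSS library was above every other library. The rise from Con to DSS, 1.12 ± 0.39 (log2 fold change ± SE, n = 3 per group), did not pass the test at an adjusted p of 0.0559 by the quasi-likelihood test of edgeR (Benjamini-Hochberg). Over 20 alternative settings its adjusted p ran from 0.0126 to 0.166, and 5 of them called it.

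Igkc, the light chain shared by all classes, had 1683, 2647 and 3246 CPM in Con, 5430, 3028 and 4095 in DSS, 3033, 2360 and 1651 in UA+DSS, and 2023, 3615 and 1702 in DSS+UA. The groups overlapped in each comparison. The difference between DSS and Con was 0.73 ± 0.38 on the log2 scale, with an edgeR adjusted p of 0.168.

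Jchain had 821, 1719 and 2110 CPM in Con, 2737, 1519 and 1940 in DSS, 2022, 1172 and 866 in UA+DSS, and 764, 1734 and 665 in DSS+UA. These groups overlapped as well. The log2 difference between DSS and Con was 0.41 ± 0.47 (edgeR adjusted p = 0.532).

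Ighm, the IgM heavy chain, had 55.7, 10.4 and 18.2 CPM in Con, 263, 101 and 57.3 in DSS, 28.2, 16.1 and 21.4 in UA+DSS, and 157, 62.0 and 82.6 in DSS+UA. The UA+DSS libraries lay below all those of DSS and DSS+UA and within the range of Con. Con 1 stood above the other Con libraries and, at 55.7, just under the lowest DSS library.

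Among the IgG genes, Ighg2b had 64.0, 40.8 and 37.97 CPM in Con, 566, 122 and 136 in DSS, 63.9, 33.5 and 31.3 in UA+DSS, and 76.8, 77.3 and 72.7 in DSS+UA. DSS was above all other libraries, and DSS 1 was far above the other DSS libraries. Ighg2c, the C57BL/6 form of IgG2a, had 65.5, 48.9 and 101 CPM in Con, 511, 160 and 538 in DSS, 181, 20.1 and 24.03 in UA+DSS, and 68.3, 97.98 and 88.9 in DSS+UA. UA+DSS 1 exceeded the lowest DSS library, and the other UA+DSS libraries were the lowest of all 12.

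Ighg1, the subclass of type 2 responses, had 7.71, 20.7 and 12.8 CPM in Con, 54.8, 39.1 and 40.9 in DSS, 53.3, 7.25 and 21.0 in UA+DSS, and 12.4, 11.6 and 4.66 in DSS+UA. Ighg3 had 2.59, 1.498 and 1.12 CPM in Con, 36.4, 9.82 and 4.07 in DSS, 5.13, 1.19 and 3.88 in UA+DSS, and 7.32, 2.04 and 7.54 in DSS+UA. UA+DSS 1 was again the highest library of its group in both genes.

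Mzb1 had 16.96, 25.1 and 25.9 CPM in Con, 88.2, 46.0 and 45.8 in DSS, 49.9, 18.9 and 21.0 in UA+DSS, and 32.0, 74.5 and 30.0 in DSS+UA. Only Con and DSS, and Con and DSS+UA, did not overlap.

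Pigr, the transporter made by the epithelium, had 3962, 4450 and 3685 CPM in Con, 1179, 763 and 1812 in DSS, 5387, 3665 and 4025 in UA+DSS, and 1892, 4423 and 2918 in DSS+UA. Every DSS library was below every library of the other groups. It was the only one of the 10 whose mean was lower in DSS than in Con.

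**Figure D1:**
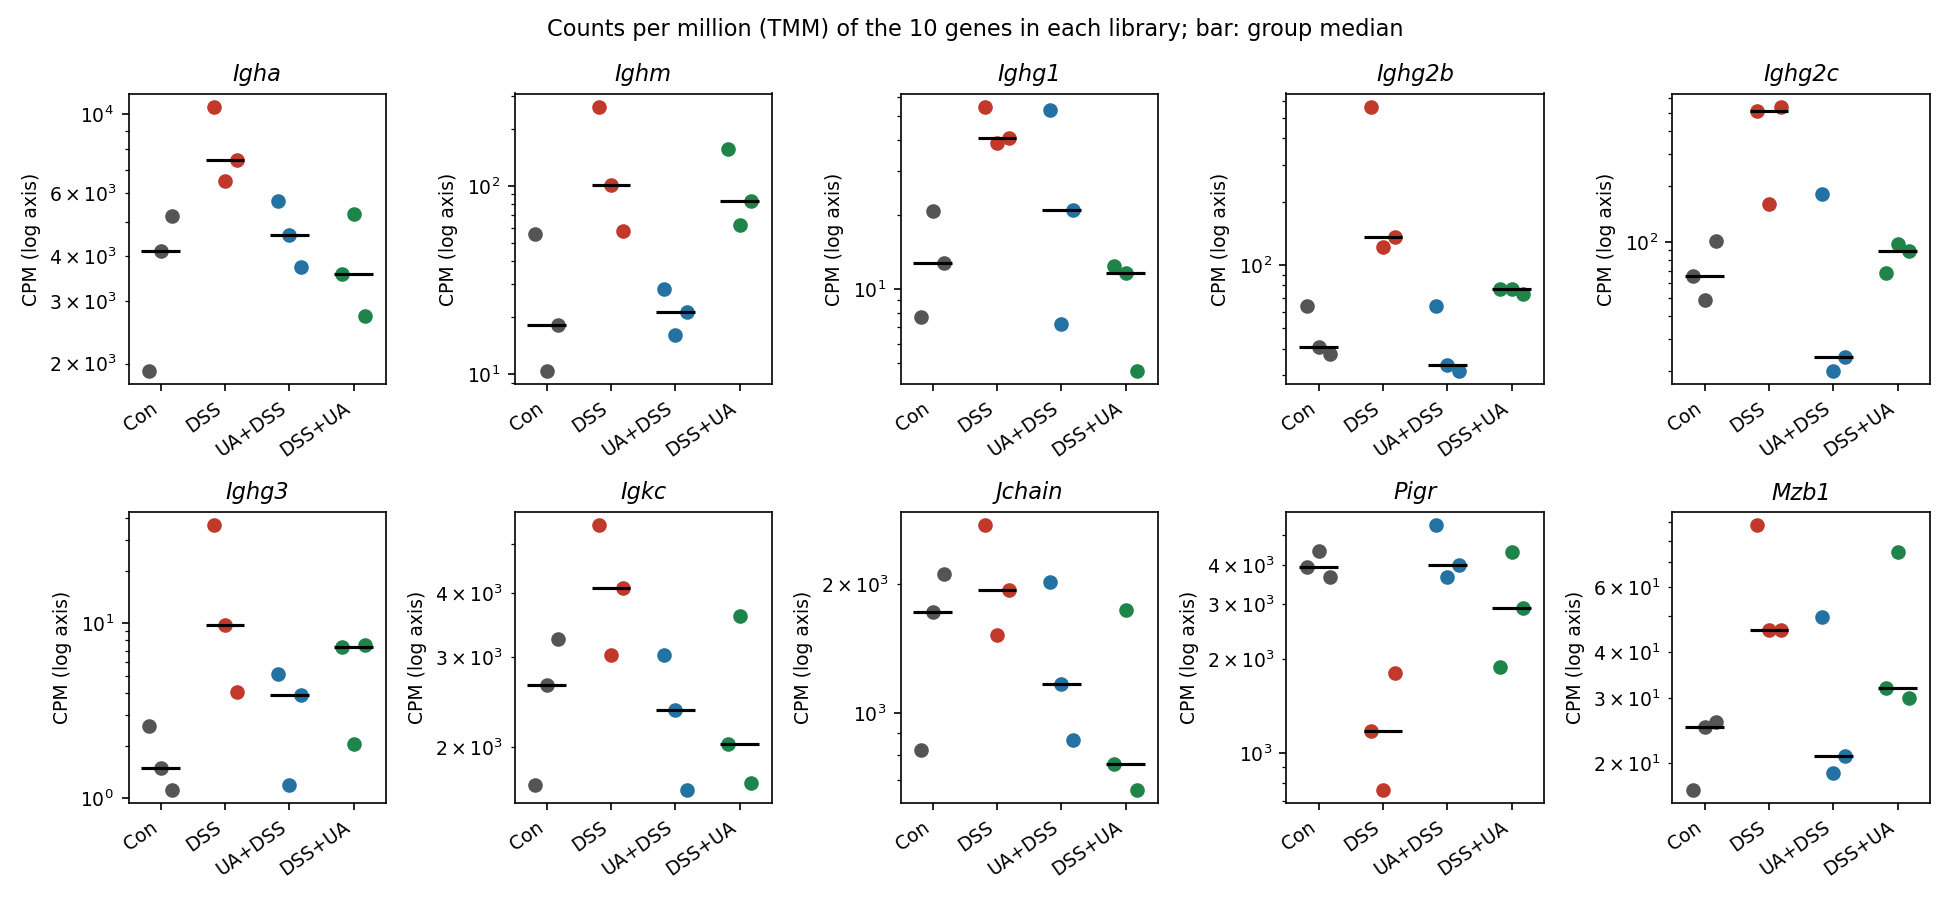
CPM (TMM, log axis) of each of the 10 genes by group, with 1 point per library and a bar at the group median. The 3 DSS libraries are the highest in Igha and Ighg2b, and the lowest in Pigr at 763 to 1812.

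In DSS against Con, the comparison of injured with uninjured colon, transcripts of IgM and of 3 IgG genes rose and the IgA transporter fell. Ighm rose by 2.32 ± 0.70 (log2 fold change ± SE; edgeR adjusted p = 0.0333), Ighg2b by 2.53 ± 0.56 (0.0102), Ighg2c by 2.49 ± 0.80 (0.0422), Ighg3 by 3.27 ± 0.86 (0.0193) and Mzb1 by 1.41 ± 0.47 (0.0471). Pigr fell by 1.69 ± 0.37 on the log2 scale (edgeR adjusted p = 0.00925). Ighg1 did not pass at 1.71 ± 0.64 (edgeR adjusted p = 0.0703), nor did Igha, Igkc and Jchain. Thus 5 of the 10 genes were called raised and 1 lowered, against 13.9% and 12.6% of all tested genes (26.5% in either direction). The groups did not overlap in 8 of the 10, against 41.3% of tested genes. The median log2 fold change of the 10 was 1.56, and that of all tested genes -0.034.

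Leaving out 1 library at a time changed the number of members called from 6 to between 2 and 7, with 2 without Con 2 or without DSS 1 and 3 without Con 3. Ighg2b and Pigr were called with each of the 12 libraries left out in turn, and Pigr under all 20 alternatives. Without DSS 1 the log2 fold change was 1.43 for Ighg2b, 1.49 for Ighm and 1.99 for Ighg3, and without Con 1 that of Ighm was 3.30. Ighm lost its call without Con 2, Con 3, DSS 1 or DSS 2, Ighg3 without Con 2, Con 3 or DSS 1, and Ighg2c without Con 1, Con 2, Con 3, DSS 1, DSS 3 or any DSS+UA library. Mzb1 lost it without any one Con or DSS library, UA+DSS 3, DSS+UA 1 or DSS+UA 3. With only the 2 groups fitted, Ighm (edgeR adjusted p = 0.0973), Ighg2b (0.0545) and Ighg3 (0.0552) lost their calls, and with the position score as a covariate Ighg2c (0.0613), Ighg3 (0.0513) and Mzb1 (0.0657) did. Omitting the filter ended the calls of Ighm (edgeR adjusted p = 0.0927), Ighg2c (0.118) and Mzb1 (0.101). A term for the replicate number ended that of Mzb1 (edgeR adjusted p = 0.0766), and limma-voom that of Ighg3 (limma-voom adjusted p = 0.0563). Conversely, Igha and Ighg1 were each called in 5 of the 20 alternatives. Without DSS 3, the library with pancreas transcripts, Ighm, Ighg2b, Ighg3 and Pigr were called, with log2 fold changes of 2.68, 2.84, 3.72 and -2.06.

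In UA+DSS against DSS, the early schedule against injury alone, Pigr was higher and transcripts of IgM and 1 IgG gene were lower. Pigr rose by 1.80 ± 0.38 (log2; edgeR adjusted p = 0.0137). Ighg2b fell by 2.68 ± 0.57 on the log2 scale (edgeR adjusted p = 0.0149) and Ighm fell by 2.68 ± 0.71 (0.0285). Ighg2c (-2.43 ± 0.80, adjusted p = 0.0565 by edgeR) and Ighg3 (-2.30 ± 0.82, 0.0719) did not pass, nor did Igha (-0.80 ± 0.39, 0.172). In all 1 member was raised and 2 were lowered, against 8.21% and 10.5% of tested genes (18.7% in either direction), and 4 of 10 did not overlap, against 42.8%. With the position score as a covariate no member was called: Pigr was then 1.69 (edgeR adjusted p = 0.143), Ighg2b -1.60 (0.296) and Ighm -0.61 (0.647). That fit called 3 genes in all, against 3300 without the covariate. The score did not overlap between these groups, so that fit cannot separate position from treatment. Without UA+DSS 2, where 227 genes were called in all, no member was called either (edgeR adjusted p = 0.0527 for Pigr, 0.0712 for Ighg2b and 0.11 for Ighm). Ighg2b lost its call with only the 2 groups fitted (0.0577 by edgeR). Ighm also lost its call without DSS 1, DSS 2, UA+DSS 1 or UA+DSS 3. Without UA+DSS 1 Ighg2c was called, at -4.19 (edgeR adjusted p = 0.0151), as was Mzb1, at -1.59 (0.0482), and without DSS 3 Ighg3, at -2.76 (0.0269). Without DSS 1 the log2 value of Ighg2b was -1.59 and that of Ighm -1.86.

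In DSS+UA against DSS, the late schedule, no member was called by edgeR, against 7.54% of tested genes. At an unadjusted p under 0.05 there were 5 of 10, against 29.9% of tested genes, and DESeq2, which called 3126 genes in all, called 5. The values were 1.30 ± 0.37 for Pigr (edgeR adjusted p = 0.0541), -2.24 ± 0.65 for Ighg1 (0.0589), -1.86 ± 0.55 for Ighg2b (0.0602), -2.24 ± 0.79 for Ighg2c (0.0936) and -1.08 ± 0.39 for Igha (0.0993). Those 5 were also the members whose groups did not overlap, where 34.7% of tested genes did not. Ighm differed by -0.49 ± 0.66 (edgeR adjusted p = 0.655), and by 0.35 without DSS 1. Leaving out single libraries gave at most 2 calls, Ighg2b and Pigr without DSS 3 and Ighg1 and Ighg2c without UA+DSS 1. Without Con 1 Igha was called (0.0492), without UA+DSS 2 Ighg1 (0.0391) and without DSS+UA 1 Pigr (0.0416), the values in brackets being edgeR adjusted p.

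Against Con, edgeR called no member in UA+DSS (0.00566% of tested genes called) or in DSS+UA (18.1% of tested genes called). At an unadjusted p under 0.05 by edgeR there were 0 of 10 in UA+DSS against Con (12.1% of tested genes), 1 in DSS+UA against Con (36.0%) and 2 between the schedules (33.8%), and DESeq2 called 0, 1 and 1. The largest values against Con were 0.98 ± 0.63 for Ighg1 in UA+DSS (edgeR adjusted p = 0.531) and 1.84 ± 0.69 for Ighm in DSS+UA (0.0835). Between the 2 schedules, edgeR also called none of the 10 (16.8% of tested genes called). Ighm came nearest, at -2.20 ± 0.70 in UA+DSS against DSS+UA (edgeR adjusted p = 0.0540). Separated groups were found for 0 members in UA+DSS against Con (20.6% of tested genes), for 3 in DSS+UA against Con (Ighm, Ighg2b and Mzb1, 38.9% of tested genes) and for 2 between the schedules (Ighm and Ighg2b, 45.3%). These comparisons share their libraries with those above, so each value stands for its own comparison only.

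**Figure D2:**
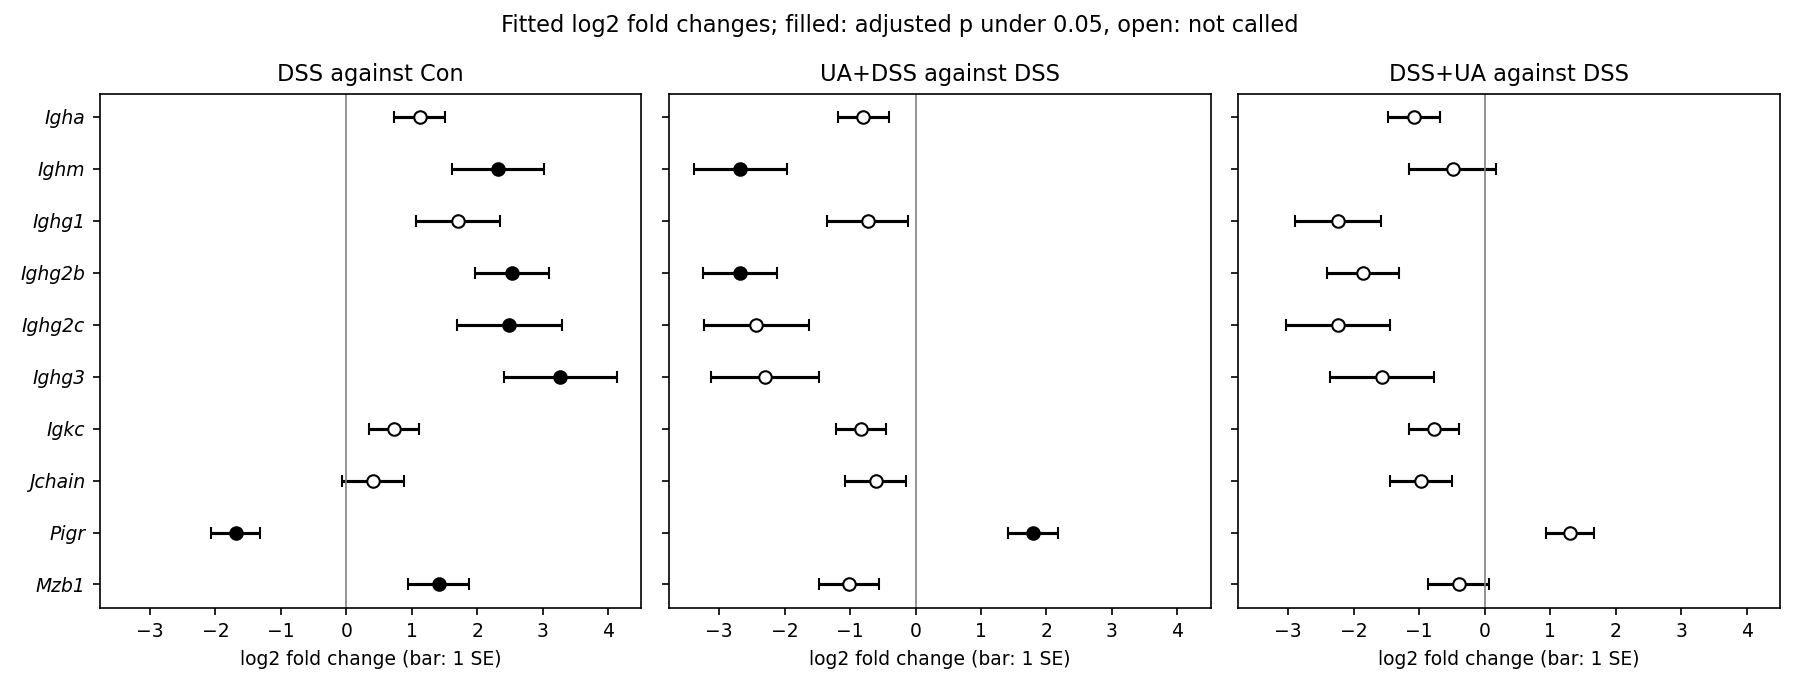
Fitted log2 fold changes of the 10 genes with bars of 1 SE in DSS against Con, UA+DSS against DSS and DSS+UA against DSS. Filled points passed an adjusted p of 0.05: 6 genes in the first comparison, 3 in the second and 0 in the third, with Pigr on the opposite side from the antibody chains in each.

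The makeup of the heavy chain pool was read within each library, where library size drops out. Per kb, Igha was 82.9% to 97.7% of heavy chain constant region counts, the 4 IgG genes 1.76% to 14.4% and Ighm 0.339% to 5.36%. Within IgG, Ighg2c had the largest share per kb in every library, 46.0% to 85.6%, and Ighg2b the next, 10.7% to 40.5%. This order rests on annotated exon lengths of 1326 and 2678 bases, whereas the secreted forms measure 1111 and 1114. In counts not divided by length, Ighg2b exceeded Ighg2c in DSS 1 (11772 against 10624), UA+DSS 2, UA+DSS 3 and DSS+UA 1. The share of IgG was highest in DSS 3 (14.4%) and DSS 1 (13.3%) and lowest in UA+DSS 2 (1.76%) and UA+DSS 3 (2.72%).

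**Figure D3:**
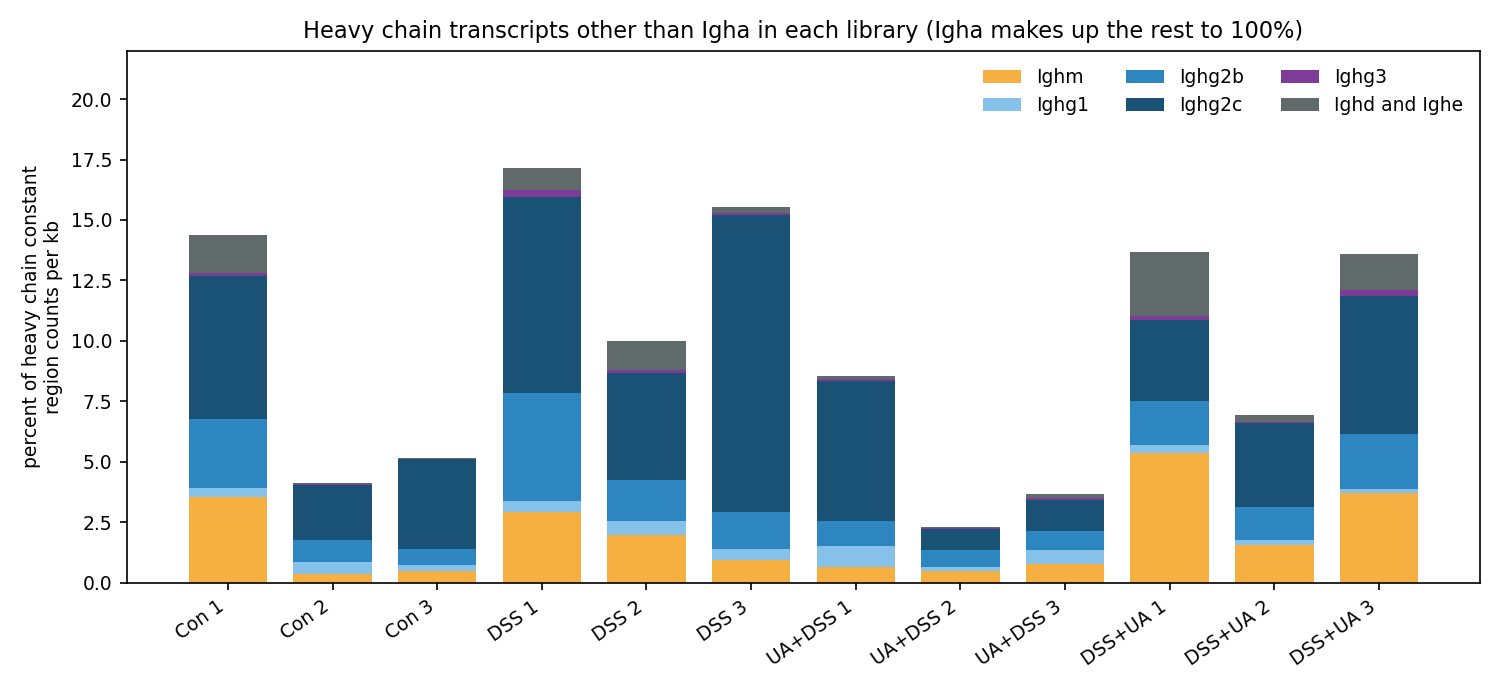
Percent of heavy chain constant region counts per kb other than Igha in each library, stacked by gene. Igha makes up the rest, from 82.9% in DSS 1, the tallest bar, to 97.7% in UA+DSS 2, the shortest.

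The ratio of Igha to the summed IgG genes, in counts per kb, was 9.23, 25.6 and 20.4 in Con, 6.22, 13.2 and 5.89 in DSS, 11.7, 55.6 and 35.4 in UA+DSS, and 15.2, 18.3 and 10.3 in DSS+UA. DSS had the lowest geometric mean (7.85, against 16.9 in Con, 28.5 in UA+DSS and 14.2 in DSS+UA), but DSS 2 overlapped each of the other groups. The exact permutation test over the 4 groups gave p = 0.117 (adjusted over 4 ratios, 0.142). This ratio therefore did not pass, although without UA+DSS 1 the adjusted p was 0.0226 (exact permutation).

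The ratio of Igha to Ighm varied more: 24.2, 282 and 202 in Con, 28.2, 45.3 and 91.7 in DSS, 143, 202 and 123 in UA+DSS, and 16.1, 60.0 and 23.3 in DSS+UA. All UA+DSS libraries were above all of DSS and DSS+UA. Con 1, at 24.2, was far below the other Con libraries. The 4 groups gave an exact permutation p of 0.142 (adjusted 0.142), and without Con 1 the adjusted p was 0.0295. UA+DSS exceeded DSS 3.12-fold and DSS+UA 5.40-fold, each with an exact two-sided p of 0.1, the smallest that 3 against 3 libraries allow.

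The ratio of Jchain to Igha was 0.457, 0.440 and 0.430 in Con, 0.276, 0.248 and 0.277 in DSS, 0.375, 0.271 and 0.246 in UA+DSS, and 0.227, 0.349 and 0.259 in DSS+UA. Con lay above the 9 DSS-exposed libraries and varied little. The exact permutation p over 4 groups was 0.0338 and, adjusted over the 4 ratios, 0.0675, so this ratio did not pass. The adjusted p was 0.0226 without UA+DSS 1, 0.0182 without DSS+UA 2 and 0.0412 without UA+DSS 3.

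**Figure D4:**
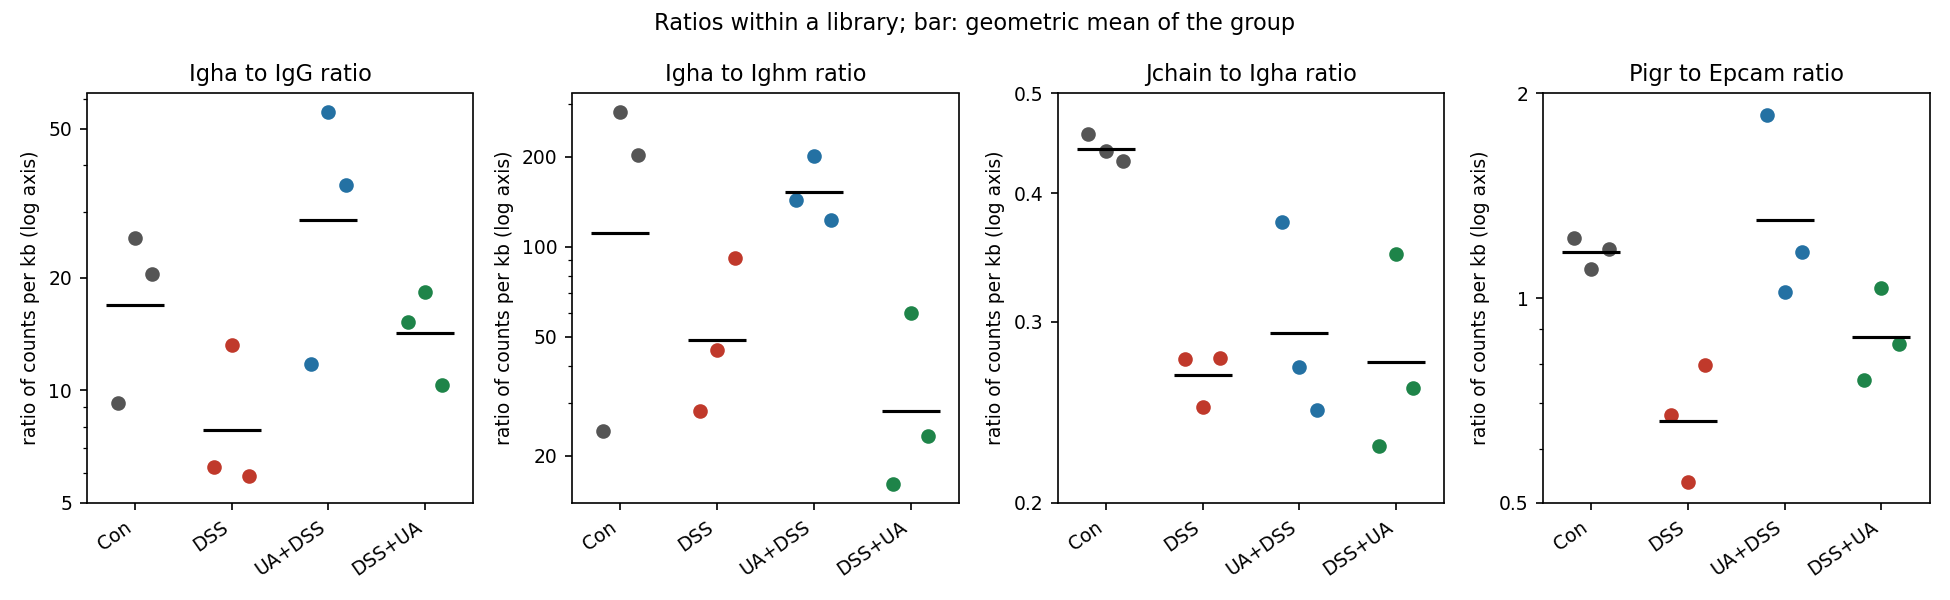
Ratios of counts per kb within a library (log axes) for Igha to IgG, Igha to Ighm, Jchain to Igha and Pigr to Epcam, with 1 point per library and a bar at the geometric mean. Con is above every other library in Jchain to Igha, at 0.430 to 0.457 against 0.227 to 0.375.

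Pigr was also set against Epcam, an adhesion molecule of all gut epithelial cells, since DSS removes epithelium. The ratio of Pigr to Epcam per kb was 1.23, 1.10 and 1.18 in Con, 0.673, 0.537 and 0.797 in DSS, 1.86, 1.02 and 1.17 in UA+DSS, and 0.758, 1.04 and 0.856 in DSS+UA. DSS did not overlap with Con or UA+DSS and overlapped with DSS+UA. The 4 groups differed (exact permutation p = 0.00597, adjusted over 4 ratios 0.0239). DSS was 0.565 times Con and UA+DSS was 1.98 times DSS, each at the smallest exact p, 0.1. Epcam itself fell in DSS by 0.93 ± 0.26 (log2; edgeR adjusted p = 0.0234), and with the sum of 10 epithelial markers in its place the DSS minus Con difference of the log2 ratio was -1.15 rather than -0.82. The adjusted p rose above 0.05 without Con 2 (0.0621), Con 3 (0.0597), DSS 1 (0.0735), DSS 2 (0.0821) or DSS+UA 3 (0.0714), each of which thus ended the call.

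The 250 bases before the RefSeq start of Pigr are shown, since Pigr was called in DSS against Con under all 20 alternatives. They lie at chr1:130826434-130826683 on the plus strand (GRCm38.p6), with the match to CACGTG, the E-box, in capitals.
Pigr promoter: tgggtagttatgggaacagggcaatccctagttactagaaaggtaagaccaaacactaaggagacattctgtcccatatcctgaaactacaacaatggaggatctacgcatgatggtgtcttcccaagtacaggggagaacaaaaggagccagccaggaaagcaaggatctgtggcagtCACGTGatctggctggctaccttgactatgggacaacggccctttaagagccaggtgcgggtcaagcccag
CACGTG is its own reverse complement, begins 71 bases before the start and occurs in 6.02% of 32851 RefSeq promoters of this length. A motif searched on both strands, AANNGAAA, an interferon regulatory factor core, had no match here (21.3% of promoters hold it). An NF-kappaB consensus site, held by 0.14% of promoters, was searched likewise and had no match. A match is a description of letters only.

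The cells that carry these genes were followed by their markers. The summed CPM of 17 B cell markers, Ighd among them, was 204, 31.8 and 41.4 in Con, 654, 430 and 142 in DSS, 69.9, 39.2 and 48.5 in UA+DSS, and 500, 121 and 274 in DSS+UA. Ighm followed this sum over the 12 libraries (Pearson r = 0.979, Spearman rho = 0.972, permutation p = 2e-05 for r, the smallest the resamples allow, and 4e-05 for rho, adjusted over 3 relations 6e-05 and 0.00012). Without the 2 libraries farthest from the median sum, r was 0.978. Here and in the relations below, libraries were permuted freely across the groups, so differences between groups enter the permutation p. Con 1, with the rectal position score, was high in both. As a description, Ighm had a Pearson r of 0.77 and a Spearman rho of 0.66 with the position score over the 12 libraries. The part of lymphoid tissue in each piece of colon was not tested.

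Of the B cell markers, 5 of 17 rose in DSS against Con and none fell, against 13.9% and 12.6% of all tested genes. Those named were Cd72 (2.03 ± 0.57 log2, edgeR adjusted p = 0.0243), Bank1 (2.82 ± 0.82, 0.0282), Fcrla (1.87 ± 0.55, 0.0296) and the antigen receptor chain Cd79a (2.04 ± 0.63, 0.0370). Without Con 2, Con 3, DSS 1 or DSS 2, or with only the 2 groups fitted, none of these 4 was called, and Cd79a was called in 11 of 20 alternatives. The fifth, chosen after its values were seen, was Cxcr5, the follicle homing receptor (2.97 ± 0.97, 0.0453). In UA+DSS against DSS 10 of 17 were lowered and none raised, against 10.5% and 8.21% of all tested genes, with a median of -3.24. These groups did not overlap in the position score. In DSS+UA against DSS none of the 17 was called, against 7.54% of tested genes, with a median of -0.50. Of 7 T cell markers 6 rose in DSS against Con and none fell.

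The summed CPM of 14 plasma cell markers was 605 to 1088 in Con, 978 to 1121 in DSS, 961 to 1166 in UA+DSS and 811 to 993 in DSS+UA, and Con 1 was the lowest. In DSS against Con 5 of 14 rose and none fell, against 13.9% and 12.6% of all tested genes. They were Pou2af1, a coactivator of antibody genes (1.75 ± 0.29 log2, edgeR adjusted p = 0.00332), Derl3 (1.24 ± 0.31, 0.0147) of protein degradation in the endoplasmic reticulum, Prdm1, the plasma cell transcription factor (1.46 ± 0.37, 0.0160), Tnfrsf13b (1.36 ± 0.39, 0.0260) and, chosen after its values were seen, Irf4 (0.94 ± 0.32, 0.0496). Igha followed the sum of the 14 markers less closely (Pearson r = 0.723, permutation p = 0.0119, adjusted 0.0119, and Spearman rho = 0.573, permutation p = 0.0565, adjusted 0.0565). That relation rested on the 2 libraries farthest from the median, without which r was 0.397. The sum weights each marker by its level: in Con the mean was 230 CPM for Sdc1 and 9.04 for Prdm1.

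**Figure D5:**
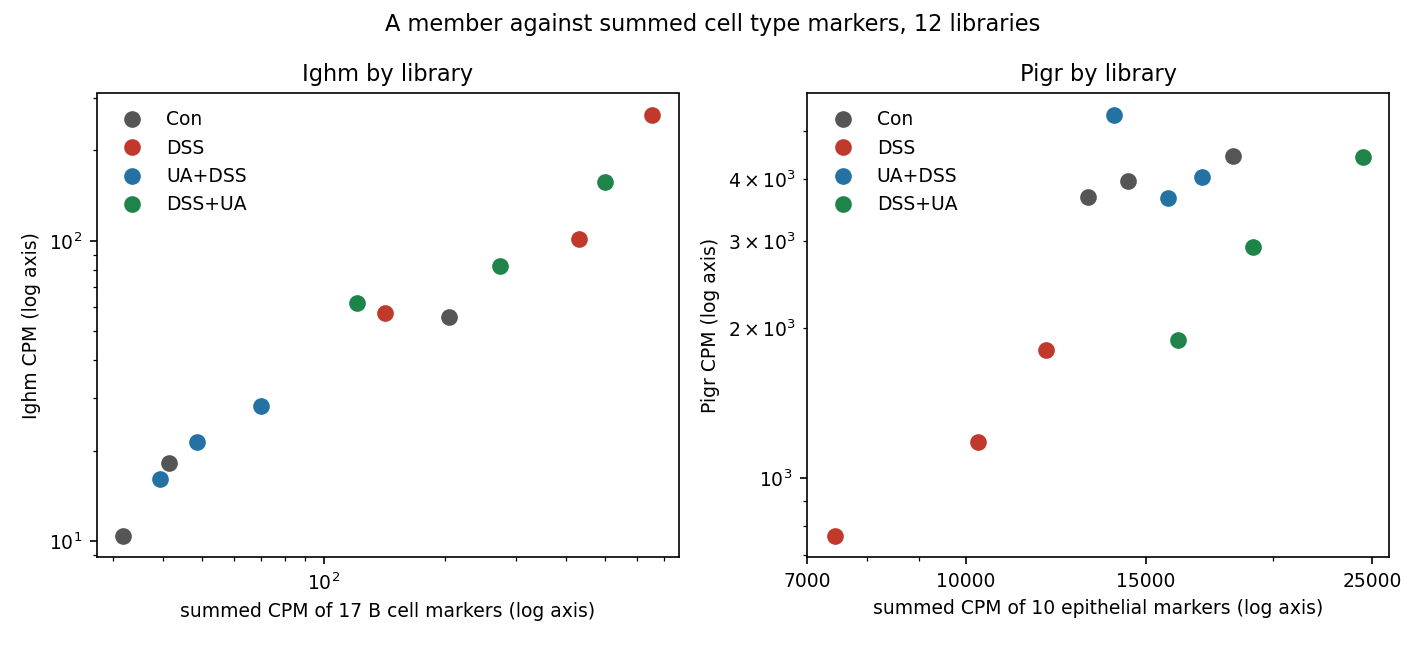
Ighm against the summed CPM of 17 B cell markers (left) and Pigr against that of 10 epithelial markers (right), both on log axes, with 1 point per library coloured by group. Ighm rises along the B cell sum from 10.4 CPM in Con 2 to 263 in DSS 1, and the 3 DSS libraries are lowest in both measures on the right.

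For Pigr, the summed CPM of 10 epithelial markers was 13160 to 18270 in Con, 7451 to 11990 in DSS, 13980 to 17030 in UA+DSS and 16150 to 24470 in DSS+UA. Pigr followed it with a Pearson r of 0.771 (permutation p = 0.00498, adjusted 0.00747) and a Spearman rho of 0.580 (permutation p = 0.0513, adjusted 0.0565), and r was 0.565 without the 2 farthest libraries. Of these markers 2 of 10 fell in DSS against Con, against 12.6% of all tested genes. They were Epcam and Cdx1 (-0.74 ± 0.25 log2, edgeR adjusted p = 0.0491). Cdx1 was called in 6 of 20 alternatives, and Epcam in 16, losing its call without Con 2, DSS 1 or DSS 2 and with only the 2 groups fitted. In DSS+UA, whose epithelial sums did not overlap those of DSS, DSS+UA 1 had 1892 CPM of Pigr, close to the highest DSS library.

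Among the remaining constant region genes, Ighd, the heavy chain of IgD, had 0.721 to 24.8 CPM in Con and 15.5 to 79.7 in DSS and was not called (2.56 ± 1.21 log2, edgeR adjusted p = 0.137). Of the lambda light chains, Iglc1 rose by 3.33 ± 0.66 (edgeR adjusted p = 0.00652) and Iglc3 by 1.18 ± 0.33 (0.0244) in DSS against Con, and Iglc2 did not pass at 0.94 ± 0.45 (0.147). Iglc1 had 27.9, 47.7 and 38.5 CPM in Con, 716, 268 and 164 in DSS, 73.9, 294 and 386 in UA+DSS, and 64.3, 93.2 and 70.5 in DSS+UA. UA+DSS 2 and UA+DSS 3, the libraries with the least IgG, thus had Iglc1 above the lowest DSS library. Lambda was 2.74% to 24.04% of light chain counts per kb, highest in UA+DSS 3. Ighe and Iglc4 were under the filter.

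The variable segments, which encode the antigen-binding ends, were read only as sums. Over 185 Ighv genes they reached 97.7, 612 and 1032 CPM in Con and 3222, 1011 and 2525 in DSS. Per 100 heavy chain constant region counts, Ighv counts numbered 4.59 in Con 1 and 13.7 to 30.7 in the other libraries. Summed over 160 Igkv genes they were 341, 1017 and 1573 CPM in Con and 3228, 1255 and 2814 in DSS.

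Of 22 genes for folding and export of secreted proteins, 9 rose in DSS against Con and 1 fell, among them Creld2 (1.43 ± 0.16 log2, edgeR adjusted p = 0.00117), the main chaperone Hspa5 (1.30 ± 0.25, 0.00544), Sdf2l1 (1.16 ± 0.22, 0.00556) and Hyou1 (1.43 ± 0.29, 0.00631). The gene that fell, chosen after its values were seen, was Fkbp2 (-0.65 ± 0.18, 0.0218). Of all tested genes, 13.9% rose and 12.6% fell in DSS against Con. In DSS+UA against Con 12 of 22 rose and none fell, while 18.1% of tested genes were called in either direction. No member was called there. These genes serve every secretory cell of the colon, and the epithelium's part was not tested.

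Of 25 tested genes for IgA switching, plasma cell survival and homing, 11 rose and 1 fell in DSS against Con, against 13.9% and 12.6% of all tested genes. Raised were Tgfb1, a switch factor for IgA (2.11 ± 0.28 log2, edgeR adjusted p = 0.00167), Madcam1, the vessel address for gut-homing lymphocytes (2.68 ± 0.45, 0.00346), and the chemokine receptor Cxcr4 (2.81 ± 0.48, 0.00359). Il6, a plasma cell growth factor, had 0 to 0.0555 CPM in Con and 7.12 to 26.6 in DSS (edgeR adjusted p = 0.00432). The gene that fell, chosen after its values were seen, was Ccl28, the epithelial chemokine that draws IgA plasma cells (-1.53 ± 0.45, 0.0300). Its mean was 154 CPM in Con, 53.6 in DSS, 134 in UA+DSS and 157 in DSS+UA. In UA+DSS against DSS 9 of the 25 were lowered and 1 raised, against 10.5% and 8.21% of all tested genes. The gene raised was the retinoic acid enzyme Aldh1a1 (2.99 ± 0.63, 0.0146), also chosen after its values were seen.

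Of 11 receptors for antibody other than Pigr, 6 rose, 1 fell and 4 were not called in DSS against Con. Of all tested genes 13.9% rose and 12.6% fell. Raised were the Fc gamma receptors Fcgr2b, the inhibitory one (3.17 ± 0.48 log2, edgeR adjusted p = 0.00279), Fcgr3 (3.76 ± 0.63, 0.00385) and Fcgr4 (4.12 ± 0.74, 0.00467). Fcer1g, the signalling chain of Fcgr3 and Fcgr4, rose as well (3.65 ± 0.69, 0.00572). Fcamr, a receptor of IgA and IgM related to Pigr and chosen after its values were seen, fell (-1.89 ± 0.45, 0.0126), from a mean of 5.78 CPM in Con to 1.55 in DSS. In UA+DSS against DSS 4 of the 11 were lowered and none raised, against 10.5% and 8.21% of all tested genes. In DSS+UA against DSS 1 was lowered, Fcgr2b (-1.80 ± 0.46, 0.0423), while 7.54% of tested genes were called in either direction.

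Cytokines, receptors and factors known to raise Pigr were more often raised than lowered in DSS, the group in which Pigr was lowest. Whether they acted on Pigr in these mice was not tested. Of 16 tested, 9 rose and 1 fell in DSS against Con, against 13.9% and 12.6% of all tested genes. The DSS libraries were uneven: the summed CPM of the 17 genes listed was 1157 in DSS 1, 4865 in DSS 2 and 1120 in DSS 3. Raised were Il1b (mean 0.855 CPM in Con and 1093 in DSS, edgeR adjusted p = 0.00332), the TNF receptor Tnfrsf1a (1.25 ± 0.21 log2, 0.00359), and the NF-kappaB subunits Nfkb1 (0.80 ± 0.19, 0.0110) and Rela (0.82 ± 0.19, 0.0117). Tlr3, an epithelial sensor of double-stranded RNA and chosen after its values were seen, fell (-0.96 ± 0.28, 0.0271). In UA+DSS against DSS 6 of the 16 were lowered and 1 raised, against 10.5% and 8.21% of all tested genes. The gene raised was again Tlr3 (1.22 ± 0.28, 0.0170).

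The tested genes whose levels were most like those of a member over the 12 libraries were named among 17458 genes outside the antibody segments, by Pearson r of log2 CPM and as a description. For Igha they were Derl3 (0.940), BC067074 (0.927), Prdm1 (0.915), Slc25a4 (0.914) and Itm2c (0.909). For the sum of the IgG genes they included Siglec1 (0.942), Dab2 (0.920), Scara3 (0.918) and Tspan11 (0.916). For Pigr they were Slc6a14 (0.983), Dram2 (0.977), Mgst2 (0.967), Tmc4 (0.967) and Lnx1 (0.964). Derl3 and Prdm1 belong to the plasma cell list, whereas none of those named for IgG does. Siglec1, a sialic acid receptor, is a macrophage marker.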

How the data were processed

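Colonic RNA from 12 C57BL/6 mice, 3 per group, was sequenced as 1 library per mouse with a kit that does not mark strand. The deposited files hold the authors' raw counts per Ensembl gene, without normalization. Reads were mapped to GRCm38, and the submitters' processing notes name FastQC, HISAT2 and Cuffdiff. No source used here gives versions, counting rules or the annotation release. Exon lengths, positions and transcripts were taken from GENCODE for GRCm38, and the promoter from RefSeq, which held 2 of the 10 genes.

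A single quasi-likelihood model (edgeR 4.0.16, R 4.3.3, robust) was fitted to the 12 libraries after TMM scaling, with the 17658 genes that filterByExpr retained. Benjamini-Hochberg adjustment covered all tested genes, with a threshold of 0.05. The fit was tested on simulated data. Ratios used counts per kb of exon with 0.5 added, and exact permutation over 369600 placements of the libraries, or 20 for a pair of groups (24 pairs, none under the threshold after adjustment). Correlations used 100000 resamples. Alternatives were DESeq2 1.42.0, limma-voom (limma 3.58.1), other scalings, no filter, the 2 groups compared alone, a replicate block, the position score, leaving out each library, other pseudocounts and lengths. The length of the secreted form was chosen after seeing the data.

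All 10 genes were named, the 4 genes with the smallest p in DSS against Con of each list (all of a list of 7 or fewer), and the 5 genes most like Igha, IgG or Pigr, of which 1 is not reported here. The genes and lists were chosen with earlier results of these data known. Replicates are separate mice of the same group, and no library duplicated another.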

Additional observations from a re-analysis of the deposited data

How the results depend on the processing

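For the members, no filter left 3 calls in DSS against Con and 1 in DSS+UA against DSS. Fitting only the 2 groups compared gave 1 in DSS+UA against DSS and 1 in UA+DSS against DSS+UA. DESeq2 gave 5 in UA+DSS and 5 in DSS+UA (each against DSS), 1 in DSS+UA against Con and 1 in UA+DSS against DSS+UA, and limma-voom 1 in each of the last 2. With the position score UA+DSS against DSS had 0. Over all genes, the fit of 2 groups called 2002 in DSS against Con, 1920 and 404 in UA+DSS and DSS+UA against DSS, 1996 in DSS+UA against Con and 0 in UA+DSS against Con. The position score left 3, 199, 0 and 0 (UA+DSS and DSS+UA against DSS, UA+DSS against Con, UA+DSS against DSS+UA). DESeq2 called 3126 in DSS+UA against DSS and 376 in UA+DSS against Con, where no filter and limma-voom called 0. No filter left 882 in DSS+UA against DSS. The cause was not tested.

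For same-numbered libraries, the deviations of log2 CPM from the group mean correlated at -0.216 to 0.187. In no comparison were all pairs over 0.1, so the number was not taken as a pairing. The replicate block gave 5 member calls between UA+DSS and DSS, 1 between DSS+UA and Con, 1 between both schedules, and 552 gene calls between DSS+UA and DSS, and the Pigr to Epcam difference of -0.82 had an adjusted p of 0.0556 (exact permutation).

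Leaving out each library gave 2 to 7, 0 to 4, 0 to 2, 0 to 0, 0 to 1 and 0 to 1 members, and 2966 to 4727, 227 to 4162, 25 to 1955, 0 to 4, 1075 to 4038 and 655 to 3935 genes, in the order DSS against Con, UA+DSS and DSS+UA against DSS, then UA+DSS against Con, DSS+UA against Con, UA+DSS against DSS+UA. The DSS minus Con log2 ratio ran from -1.54 to -0.81 (Igha to IgG), -2.29 to -0.51 (Igha to Ighm), -0.76 to -0.68 (Jchain to Igha) and -0.96 to -0.68 (Pigr to Epcam). Ighm in DSS+UA against DSS ran from -0.94 to 0.35, the reversal being without DSS 1. The secreted-form length, chosen after seeing the data, changed no call of a ratio.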

Other observations

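The summed CPM of the 3 lambda variable genes counted was 21.1, 84.4 and 67.6 in Con, 906, 282 and 314 in DSS, 172, 312 and 440 in UA+DSS, and 83.3, 169 and 109 in DSS+UA. Every DSS library was above every Con library, and UA+DSS 2 and UA+DSS 3 lay within the range of DSS. The ratio of Igha to Igkc, in counts per kb, ran from 0.226 in Con 1 to 0.450 in UA+DSS 3.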
